A study of Homo sapiens with 6 samples.

Results

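Expression of the nuclear-encoded subunits of the mitochondrial respiratory chain and ATP synthase was measured by RNA sequencing in U2OS cells, an established human osteosarcoma line. Control cells were kept in the solvent DMSO, and treated cells (PARGi) in 25 µM PDD00017273 for 4 days, with 3 libraries in each group. PDD00017273 inhibits PARG, a glycohydrolase that takes poly(ADP-ribose) chains off proteins. The sample titles also carry the letters CC, whose meaning the labels do not give. No genotype or other agent that differs between the groups is given in the labels, which number the replicates but do not say whether they were separate cultures, so the p-values measure only the spread between these libraries. Members were chosen by a rule on symbol and annotation, with earlier results of these data known. They are protein-coding genes whose symbols start with NDUFA, NDUFB, NDUFC, NDUFS, NDUFV, UQCR, COX4I, COX5, COX6, COX7, COX8 or ATP5. SDHA, SDHB, SDHC, SDHD and CYC1 were added, and the NDUFAF assembly factors and the inhibitor ATP5IF1 were left out. The rule found 90 genes among 60708 gene identifiers. By complex they comprise 38 genes of complex I, 4 of complex II, 10 of complex III, 19 of complex IV and 19 of complex V.

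Complexes I to IV sit in the inner mitochondrial membrane and pass electrons from NADH and succinate through ubiquinone and cytochrome c to oxygen, and complexes I, III and IV pump protons as they do so. Complex V, the ATP synthase, lets the protons flow back and makes ATP. All complexes except complex II are assembled from proteins of both genomes, nuclear and mitochondrial, and only the nuclear genes are members here. Protein and assembled complexes were not measured.

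The 6 libraries held between 60286931 and 80605145 counts. Levels are given in counts-per-million (CPM) after TMM scaling, a correction for library composition whose factors lay between 0.9953 and 1.0068. Differences between the groups come from edgeR's quasi-likelihood test over all 20409 genes with enough counts, with Benjamini-Hochberg adjusted p-values. A gene is said to have risen or fallen where its adjusted p was under 0.05. The biological coefficient of variation between replicates was 2.7%.

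Few respiratory chain subunits changed, and those that did changed by at most 12.5%. Of 90 members, 82 had enough counts to be tested, 4 rose and 5 fell, and 73 did not pass the test. The 9 that passed were 11% of the members tested, beside 24.3% of all genes tested, and 13.4% of the 67 members at 10 CPM or more, beside 35.7% of all genes at that level. Among all genes tested, 13.2% rose and 11% fell. The changes of the 9 ran from -11.9% (COX7B) to 12.5% (NDUFA8). When edgeR's glmTreat asked for evidence of more than a 1.1-fold change, 6.57% of all genes tested passed and 0 members. At an unadjusted p under 0.05 the main test gave 17 members. The median log2 fold change over the 82 members was 0.0028, beside -0.0070 over all genes tested, with 42 members above 0 and 40 below. At 10 CPM or more the median was 0.0016 for the members, 0.0180 for all genes and 0.0198 for protein-coding genes.

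The width of the confidence intervals shows how small a difference could have gone unseen. For 48 of the 82 members the 95% confidence interval of the fold change lay within 1.1-fold in either direction, and for 71 members (86.6%) within 1.2-fold. The same held for 48.7% of all genes tested. At 10 CPM or more, 66 of 67 members (98.5%) had an interval within 1.2-fold, beside 87.4% of all genes at that level. The exception was COX7B, whose interval ran from -16.9% to -6.68%. Median absolute log2 fold changes were 0.0368 for the members and 0.0684 for all genes at 10 CPM or more. For 21 of the 82 members (25.6%) the 3 treated libraries lay all above or all below the 3 control libraries, beside 38% of all genes tested.

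**Figure D1:**
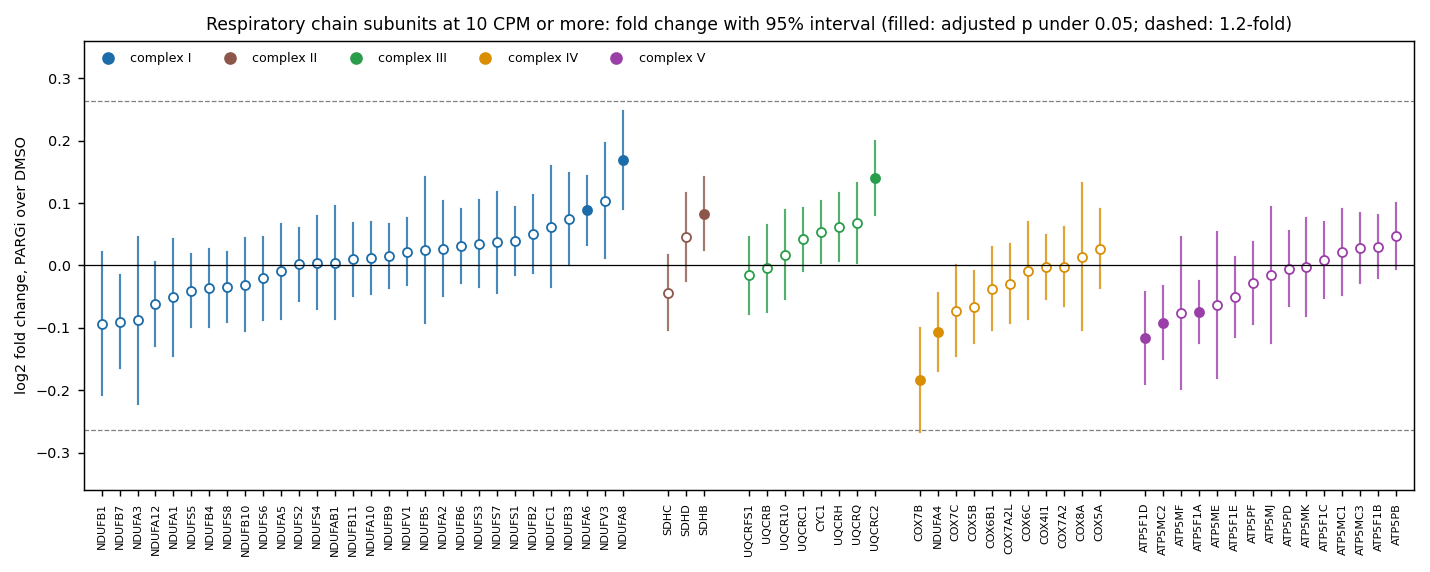
The y axis gives the log2 fold change of PARGi over DMSO with its 95% confidence interval for the 67 members at 10 CPM or more, ordered within each complex. Filled points passed the test. Higher filled points are all in complexes I, II and III and lower ones in complexes IV and V, and only the interval of COX7B crosses the dashed 1.2-fold lines.

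By complex, the members that rose were in complexes I (2 of 37 tested), II (1 of 4) and III (1 of 10), and those that fell were in complexes IV (2 of 13) and V (3 of 18). These were 5.41%, 25%, 10%, 15.4% and 16.7% of the members tested in complexes I to V. Over all genes tested, 13.2% rose and 11% fell. At 10 CPM or more, where 67 of the 82 members tested lay, 35.7% of all genes passed in either direction, beside 24.3% of all genes tested. The shares that rose and fell at that level were not counted. The median log2 fold changes were 0.0119, 0.0021, 0.0296, -0.0294 and -0.0103 for complexes I to V. The SD between replicate libraries of the members' median log2 level ran from 0.0292 in complex III to 0.0492 in complex IV. The median of each complex was below that spread or, in complex III, about equal to it. This is the spread of single libraries and not the error of a difference between group means, so it does not test the medians. Whether the complexes differ from each other was not tested. Under upper-quartile scaling, which moved the median of all genes from -0.0070 to -0.0315, 2 members rose and 8 fell, and over all genes 2003 rose and 2944 fell in place of 2700 and 2251. In that scaling 1 member of complex I rose and 1 fell, so the division between complexes was not kept there. The medians of complexes I to V were then -0.0128, -0.0224, 0.0048, -0.0542 and -0.0350, and with protein-coding genes alone -0.0034, -0.0129, 0.0143, -0.0447 and -0.0256, so those of complexes I and II changed sign in both. The count of members that passed also moved with single libraries: 4 passed without PARGi replicate 2, 5 without PARGi replicate 3 and 14 without DMSO replicate 3, of which 11 fell. Complex I members fell in other alternatives too, so the division between complexes was not kept in those either. They were NDUFB7 with protein-coding genes alone and without PARGi replicate 1, and NDUFA3, NDUFB1 and NDUFB7 without DMSO replicate 3.

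**Figure D2:**
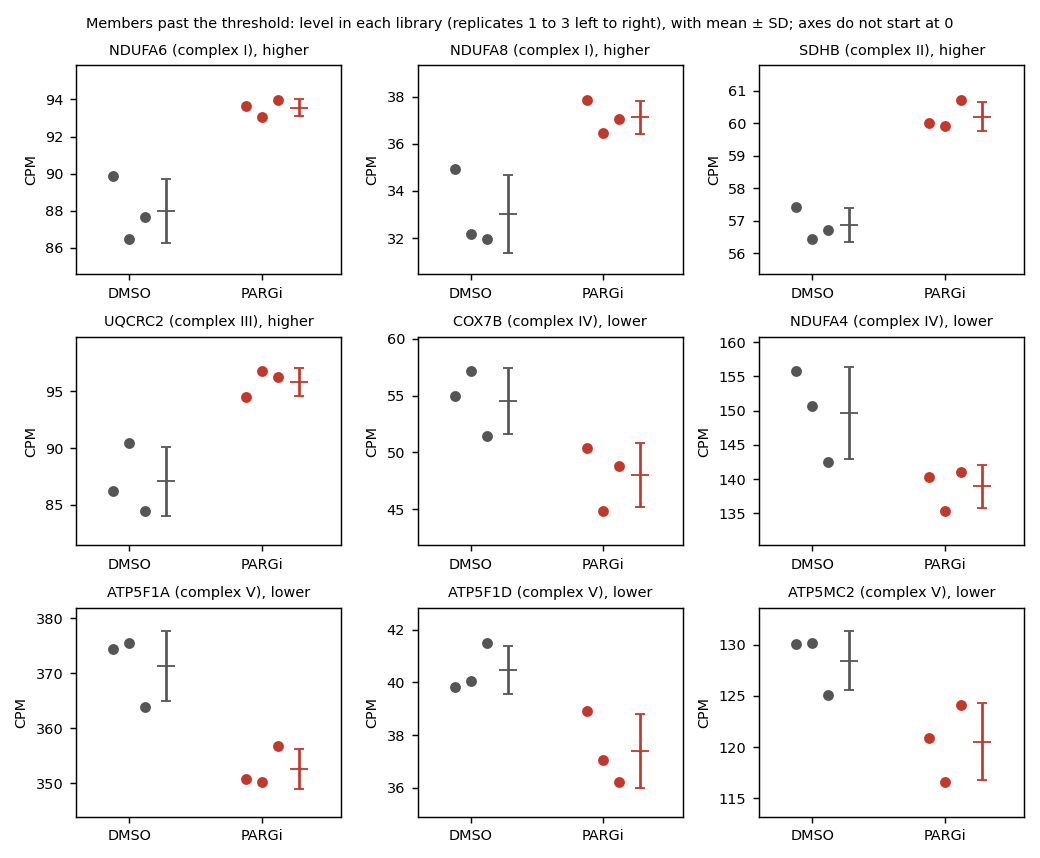
Each panel gives the level in CPM of a member that passed the test, with the 3 libraries of each group in the order of their replicate numbers and the mean ± SD beside them. The axes do not start at 0. In all 9 panels the 3 treated libraries lie on the same side of the 3 control libraries, as they do for 38% of all genes tested. The 9 members were picked by the test on these same libraries.

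Complex I, the NADH dehydrogenase and the chain's main entry point for electrons, had 2 members that rose, both accessory subunits. NDUFA8, a cysteine-rich subunit that faces the intermembrane space, stood at 34.9, 32.2 and 31.9 CPM in DMSO replicates 1, 2 and 3 and at 37.9, 36.5 and 37.1 CPM in PARGi replicates 1, 2 and 3. All treated libraries were above all control libraries, and they averaged 37.1 ± 0.706 CPM beside 33.0 ± 1.66 CPM in the controls (SD, n = 3 each). NDUFA8 was 12.5% higher in treated cells, with a log2 fold change of 0.17 (SE 0.038, edgeR adjusted p = 0.00177). This was the largest rise among the 9 members that passed, and it passed in all 18 alternative analyses.

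NDUFA6, an accessory subunit of the matrix arm that binds the mitochondrial acyl carrier protein, stood at 89.9, 86.5 and 87.7 CPM in DMSO and 93.6, 93.1 and 94.0 CPM in PARGi. The groups did not overlap, and NDUFA6 was 6.32% higher in treated cells (log2 fold change 0.088, SE 0.027, edgeR adjusted p = 0.0167). It did not pass under upper-quartile scaling (0.064, adjusted p = 0.0926). Leaving out DMSO replicate 2, PARGi replicate 1 or PARGi replicate 3 also ended the call, at log2 fold changes of 0.077, 0.088 and 0.086 and adjusted p-values of 0.057, 0.0536 and 0.0714.

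None of the 7 core subunits of complex I tested, which carry the flavin, the iron-sulfur clusters and the path to ubiquinone, passed the test. Their median log2 fold change was 0.0223. NDUFS1, the large iron-sulfur subunit, stood at 143.4, 144.9 and 137.8 CPM in DMSO and at 144.8, 147.7 and 145.3 CPM in PARGi, which overlap (2.75% higher, 95% confidence interval -1.05% to 6.7%). NDUFV1, the subunit that binds NADH and flavin, stood at 104.4, 105.6 and 104.9 CPM in DMSO and 104.9, 107.5 and 107.3 CPM in PARGi (1.56% higher, 95% confidence interval -2.12% to 5.36%). For both the interval excludes a change of 10% in either direction. NDUFV2, the flavoprotein partner of NDUFV1, had only 116 to 153 counts in a library and an interval from -25.6% to 5.48%, and so is far less well measured. Its annotated pseudogene had 1017 counts over the 6 libraries, beside 867 for NDUFV2 itself, and whether reads were counted on the copy was not tested. Of the 30 accessory subunits tested, 28 did not pass. NDUFS5, an accessory subunit of the intermembrane space side with the highest level per kb of exonic sequence in complex I (230.8 CPM per kb), stood at 131.6, 127.8 and 125.3 CPM in DMSO and 127.7, 120.3 and 126.2 CPM in PARGi. Its groups overlap.

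Complex II, succinate dehydrogenase, belongs to both the respiratory chain and the TCA cycle and is encoded by 4 nuclear genes. SDHB, its iron-sulfur subunit, stood at 57.4, 56.4 and 56.7 CPM in DMSO and at 60.0, 59.9 and 60.7 CPM in PARGi. The groups were apart by more than their spread, with SDHB 5.91% higher in treated cells (log2 fold change 0.083, SE 0.028, edgeR adjusted p = 0.0351). This is the least stable of the 9 calls: it was lost in 11 of 18 alternatives, among them DESeq2 (adjusted p = 0.0568) and each of the 6 analyses that left out a library, where the log2 fold change ran from 0.077 (without PARGi replicate 3, adjusted p = 0.129) to 0.088 (without DMSO replicate 1, adjusted p = 0.0598). Its direction was the same in all 18. The membrane anchors did not pass: SDHC stood at 81.3, 78.1 and 77.7 CPM in DMSO and 77.2, 74.4 and 78.3 CPM in PARGi, and SDHD at 36.2, 37.9 and 36.5 CPM in DMSO and 38.6, 37.5 and 38.1 CPM in PARGi. Both sets of groups overlap.

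SDHA, the flavoprotein subunit of complex II, could hardly be measured. It had 664 counts over all 6 libraries, between 1.45 and 1.82 CPM, whereas its 4 annotated pseudogenes together had 28608 counts, at 68.9, 66.9 and 71.6 CPM in DMSO and 68.9, 69.2 and 67.1 CPM in PARGi. The interval of the change of SDHA ran from -20.3% to 18.6%. How reads with more than 1 place in the genome were counted is not given in the sources used here, and whether reads of SDHA were counted on its pseudogenes was not tested.

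Complex III, the cytochrome bc1 complex, passes electrons from ubiquinol to cytochrome c. UQCRC2, a core protein on its matrix side, stood at 86.3, 90.4 and 84.5 CPM in DMSO and 94.5, 96.8 and 96.3 CPM in PARGi. The treated libraries were all above the control libraries, and UQCRC2 was 10.2% higher (log2 fold change 0.14, SE 0.029, edgeR adjusted p = 0.000801). This call was kept in all 18 alternatives. UQCRC1, its partner core protein, stood at 220.6, 219.3 and 214.2 CPM in DMSO and 221.7, 224.8 and 226.6 CPM in PARGi. These groups did not overlap either, but the difference of 2.92% did not pass (adjusted p = 0.241).

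CYC1, cytochrome c1, the subunit that hands electrons to cytochrome c, had the highest level per kb of exonic sequence in complex III, at 171.9 CPM per kb. It stood at 337.4, 328.8 and 333.0 CPM in DMSO and 349.0, 341.2 and 347.0 CPM in PARGi, again without overlap (3.81% higher, edgeR adjusted p = 0.107), and it passed with DESeq2 (adjusted p = 0.0426). The Rieske iron-sulfur protein UQCRFS1 stood at 134.9, 140.9 and 132.1 CPM in DMSO and 140.0, 130.5 and 133.1 CPM in PARGi, which overlap. Without DMSO replicate 1, 3 members of complex III rose, UQCRC2, UQCRH and UQCRQ, and 3 also rose with an offset for GC content and length.

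Complex IV, cytochrome c oxidase, reduces oxygen to water. Its catalytic subunits come from mitochondrial DNA, and the nuclear subunits surround them, several with tissue-specific isoforms. COX7B, a small membrane subunit needed for assembly of the complex, stood at 55.0, 57.1 and 51.4 CPM in DMSO and 50.4, 44.9 and 48.8 CPM in PARGi. All treated libraries were below all control libraries, and COX7B fell by 0.18 on the log2 scale (SE 0.040, edgeR adjusted p = 0.00151), a change of -11.9%. The call held in all 18 alternatives, with log2 fold changes from -0.23 to -0.14.

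NDUFA4, once taken for a subunit of complex I and now assigned to complex IV, stood at 155.7, 150.7 and 142.5 CPM in DMSO and 140.3, 135.4 and 141.1 CPM in PARGi. The nearest libraries of the groups, DMSO replicate 3 and PARGi replicate 3, were 142.5 and 141.1 CPM. NDUFA4 fell by 0.11 on the log2 scale (SE 0.030, edgeR adjusted p = 0.0107), a change of -7.13%. It no longer passed without DMSO replicate 1 (-0.079, adjusted p = 0.0833) or without PARGi replicate 2 (-0.088, adjusted p = 0.092). Its paralogue NDUFA4L2, known as a hypoxia-induced gene, had too few counts to be tested, with 7, 6 and 4 counts in DMSO and 14, 12 and 8 in PARGi.

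The other complex IV subunits did not pass. COX4I1, the main form of subunit IV, stood at 342.5, 331.2 and 329.7 CPM in DMSO and 338.2, 328.3 and 335.0 CPM in PARGi, a difference of -0.18% with an interval from -3.66% to 3.43%. COX7A2 was as even, at 114.4, 110.3 and 104.5 CPM in DMSO and 111.3, 107.6 and 109.8 CPM in PARGi. COX7A2L, a COX7A relative that takes part in supercomplex assembly, stood at 140.4, 133.8 and 126.9 CPM in DMSO and 132.2, 129.6 and 131.0 CPM in PARGi. For these 3 genes the treated libraries lay within or at the edge of the range of the control libraries. COX6B1, which had the highest level per kb of exonic sequence in complex IV (122.7 CPM per kb), stood at 117.2, 121.8 and 109.9 CPM in DMSO and 113.7, 110.0 and 116.2 CPM in PARGi. Its difference of -2.53% passed only without DMSO replicate 3 (adjusted p = 0.0496). COX6A1 was counted at a low level, 4.88, 5.53 and 5.04 CPM in DMSO and 5.39, 5.07 and 5.66 CPM in PARGi, and 13.02% of its exonic bases are shared with another gene on the same strand.

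The isoforms known from heart, skeletal muscle, lung and testis were counted at very low levels. Over the 6 libraries COX4I2, the lung form of subunit IV, had 1 count, the muscle forms COX6A2 and COX7A1 had 5 and 1, and the testis forms COX8C and COX7B2 had 2 and 0. COX6B2, the testis form of subunit VIb, was the highest of them, with 21, 14 and 14 counts in DMSO and 8, 17 and 15 in PARGi. It was tested and did not pass, with an interval from -54.5% to 28.2%, and it shares 30.9% of its exonic bases with another gene on the same strand. A count of 0 over these libraries allows a level of up to 0.00721 CPM (3 counts, counting error only). With ATP5MGL (4 counts), NDUFC2-KCTD14 (0 counts) and NDUFA4L2, the other 5 isoforms named here are the 8 members not tested.

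Complex V consists of an F1 head with a central stalk on the matrix side and a membrane part whose rotor is a ring of c subunits. Of 18 members tested 3 fell (16.7%, beside 11% of all genes tested), 2 of the F1 part and 1 c subunit gene, and none rose. Most of the 18 were above 10 CPM, where 35.7% of all genes passed in either direction, beside 24.3% of all genes tested. The share that fell at that level was not counted, so 16.7% is not shown to be a high share. ATP5F1A, the alpha subunit of the head, stood at 374.3, 375.5 and 363.9 CPM in DMSO and 350.8, 350.2 and 356.7 CPM in PARGi. The groups did not overlap, and ATP5F1A fell by 0.074 on the log2 scale (SE 0.024, edgeR adjusted p = 0.0259), a change of -5.02%. It missed the threshold with the replicate number as a block (adjusted p = 0.0539) and in 5 of the 6 analyses that left out a library. Its log2 fold changes there were -0.071 without DMSO replicate 1, -0.066 without DMSO replicate 2, -0.071, -0.069 and -0.082 without PARGi replicates 1, 2 and 3, with adjusted p-values of 0.0712, 0.0597, 0.0852, 0.116 and 0.058.

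ATP5F1B, the beta subunit, which carries the catalytic sites and alternates with alpha in the head, stood at 474.3, 478.1 and 456.4 CPM in DMSO and 480.1, 479.1 and 479.5 CPM in PARGi. The treated libraries were all above the controls, but the difference of 2.12%, with an interval from -1.37% to 5.74%, did not pass. Its level per kb of exonic sequence, 204.4 CPM per kb, was the highest in complex V. The gamma subunit ATP5F1C, the shaft of the rotor, stood at 115.1, 112.8 and 106.3 CPM in DMSO and 110.2, 111.6 and 114.4 CPM in PARGi, with overlapping groups.

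ATP5F1D, the delta subunit at the foot of the central stalk, stood at 39.8, 40.1 and 41.5 CPM in DMSO and 38.9, 37.0 and 36.2 CPM in PARGi. The lowest control library and the highest treated one, at 39.8 and 38.9 CPM, were close to each other but did not overlap. ATP5F1D fell by 0.12 on the log2 scale (SE 0.035, edgeR adjusted p = 0.0181), a change of -7.75%. Without DMSO replicate 3, PARGi replicate 2 or PARGi replicate 3 its log2 fold change was -0.098, -0.11 and -0.093, with adjusted p-values of 0.0591, 0.0763 and 0.127. None of the 4 peripheral stalk subunits passed; ATP5PO, which joins the stalk to the head, had 309 to 436 counts in a library and differed by -11.6% (95% confidence interval -20.4% to -1.74%, edgeR adjusted p = 0.0841).

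The c subunit is encoded by 3 genes that make the same mature protein behind different import sequences, and they did not all move alike. ATP5MC2 stood at 130.1, 130.2 and 125.1 CPM in DMSO and 120.9, 116.6 and 124.1 CPM in PARGi, and fell by 0.092 on the log2 scale (SE 0.028, edgeR adjusted p = 0.0192), a change of -6.16%. ATP5MC3 stood at 135.3, 136.4 and 131.4 CPM in DMSO and 138.2, 133.0 and 139.9 CPM in PARGi, and ATP5MC1 at 38.4, 39.2 and 37.2 CPM in DMSO and 39.2, 39.0 and 38.4 CPM in PARGi. Both overlap between groups, with intervals from -1.89% to 6.03% and from -3.26% to 6.52%. Their sum was 301.1 ± 6.48 CPM for the controls and 296.4 ± 7.06 CPM for the treated cells, and the groups overlap. The call for ATP5MC2 was lost without DMSO replicate 1, PARGi replicate 1 or PARGi replicate 2, at log2 fold changes of -0.085, -0.094 and -0.068 and adjusted p-values of 0.0684, 0.0539 and 0.159. Whether the 3 genes differ from each other in their response was not tested.

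These genes can be told apart in short reads only where their sequences differ. Shown here, as the part in which they are most alike in protein, are the last 231 coding bases before the stop codon in GENCODE 29 transcripts on GRCh38, 5′ to 3′, which encode the same 77 residues in each gene. The counts also cover the import sequences and untranslated parts, which are not shown. Capitals mark the 57 positions at which the 3 genes are not all the same.
ATP5MC1: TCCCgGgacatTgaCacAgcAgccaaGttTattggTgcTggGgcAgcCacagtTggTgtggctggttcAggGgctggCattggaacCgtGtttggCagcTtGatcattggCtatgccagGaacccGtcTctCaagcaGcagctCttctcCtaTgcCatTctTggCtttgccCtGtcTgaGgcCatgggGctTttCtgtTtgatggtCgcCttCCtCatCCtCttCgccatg
ATP5MC2: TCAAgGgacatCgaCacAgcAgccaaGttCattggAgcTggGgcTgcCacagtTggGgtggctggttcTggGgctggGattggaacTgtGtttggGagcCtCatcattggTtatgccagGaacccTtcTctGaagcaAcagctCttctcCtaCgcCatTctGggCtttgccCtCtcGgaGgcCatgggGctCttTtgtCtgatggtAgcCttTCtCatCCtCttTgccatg
ATP5MC3: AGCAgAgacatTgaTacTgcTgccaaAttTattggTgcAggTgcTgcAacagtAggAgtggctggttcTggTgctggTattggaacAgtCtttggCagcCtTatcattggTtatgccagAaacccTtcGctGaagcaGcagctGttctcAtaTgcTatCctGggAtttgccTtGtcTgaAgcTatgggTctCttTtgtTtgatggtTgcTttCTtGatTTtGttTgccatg

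ATP5MC1 lies on the plus strand at chr17:48892765-48895871, ATP5MC2 on the minus strand at chr12:53632726-53677408 and ATP5MC3 on the minus strand at chr2:175176258-175184607. Over this stretch ATP5MC1 and ATP5MC2 are 88.3% identical, and ATP5MC3 is 80.1% identical to each of them. The longest run without a difference is 17 bases between ATP5MC2 and either other gene and 11 bases between ATP5MC1 and ATP5MC3. A read much longer than that and wholly from this stretch differs between the genes. The rest of the coding part and the annotated pseudogenes were not compared. The whole proteins of the transcripts used have 136, 141 and 142 residues for ATP5MC1, ATP5MC2 and ATP5MC3.

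Summed by complex, the subunits stayed within a few percent of the controls. All 90 members together came to 6673, 6574 and 6338 CPM in DMSO and 6560, 6434 and 6578 CPM in PARGi, that is 6528 ± 172 and 6524 ± 78.6 CPM. The spread within DMSO was larger than the difference between the groups. Complex III summed to 1235, 1218 and 1184 CPM in DMSO and 1257, 1235 and 1258 CPM in PARGi, 3.11% higher on average. Complex IV summed to 1333, 1302 and 1238 CPM in DMSO and 1268, 1229 and 1270 CPM in PARGi, a mean difference of -2.73%. For complexes I, II and V the mean differences were 0.612%, 1.2% and -1.04%, and in all 5 complexes the libraries of the groups overlapped. Complex III no longer overlapped when its members with an annotated pseudogene were left out (679.2 ± 11.3 CPM in DMSO and 703.9 ± 5.47 CPM in PARGi, 3.64% higher). Fewer mRNA molecules per cell in every cell and fewer cells with such mRNA cannot be told apart in these bulk samples.

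**Figure D3:**
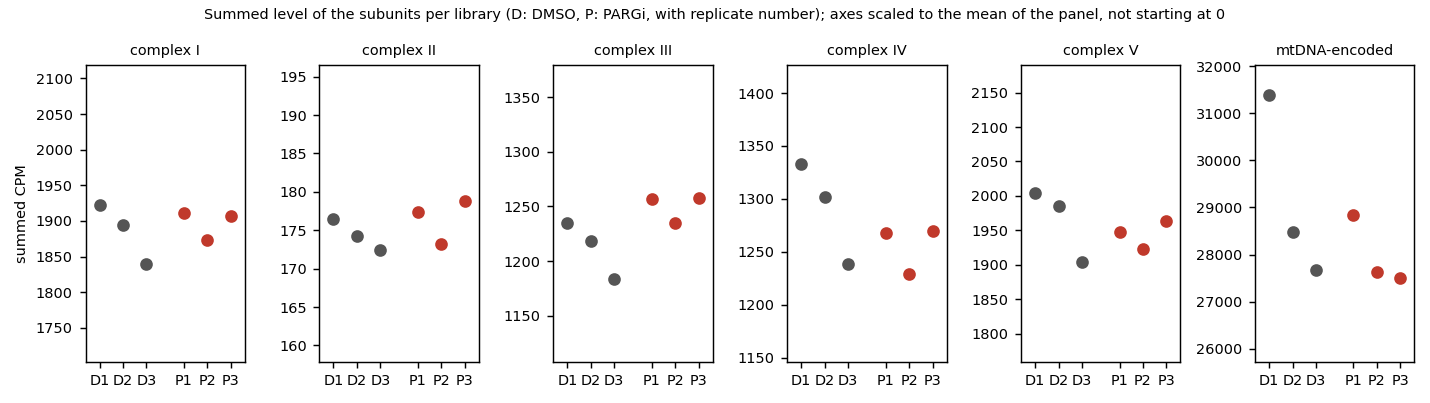
Each panel gives the summed CPM of the members of a complex, and of the 13 mitochondrially encoded protein genes, in the 3 DMSO (D) and 3 PARGi (P) libraries, numbered by replicate. The axes are scaled to each panel's mean and do not start at 0. DMSO replicate 3 is the lowest control library in every panel, and the groups overlap in each.

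The members moved together between replicates. DMSO replicate 3 was the lowest control library for 62 of 82 members (75.6%), beside 35.1% of all genes tested, and DMSO replicate 1 the highest for 53 (64.6%), beside 32.6%. Among treated libraries PARGi replicate 2 was the lowest for 52 members (63.4%), beside 32.7% of all genes. The median deviation of the members from their group's mean was 0.0402 in DMSO replicate 1 and -0.0430 in DMSO replicate 3 on the log2 scale, both larger than the median difference between treated and control cells. These counts were made after the values were seen. What sets the shared level in a library was not tested, and the members are for this reason not independent of each other.

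The counted level of a member went with the overlap of its exons with other genes. Of 79 main subunits, leaving out 11 tissue isoforms, copies and read-through genes, 55 share no exonic bases with another gene on the same strand in GENCODE 29, and 24 share between 1.39% and 34.52% of theirs. The former had a median of 76.6 CPM with 1 gene under 10 CPM (SDHA), and the latter a median of 10.4 CPM with 11 genes under 10 CPM. NDUFA7, NDUFB8, NDUFV2, NDUFA13 and ATP5MG, which overlap other genes over 32.27%, 33.77%, 28.44%, 20.97% and 8.19% of their exonic bases, had the lowest levels of the overlapping set, from 0.276 to 2.88 CPM. The level did not follow the share of overlap throughout. COX8A, with the largest share of 34.52%, was at 10.1 CPM, and NDUFS3, with 19.65%, was at 70.2 CPM. None of the 15 members tested under 10 CPM passed the test, and the interval lay within 1.2-fold for 5 of them. Overlaps were read from GENCODE 29, which held 58396 of the 60708 counted identifiers. The annotation used for counting is not given, so the overlaps in it can differ, also at SDHA. This comparison was chosen after the values were seen, and how reads in shared exons were counted is not given in the sources used here. For these genes the level in CPM is therefore uncertain, also where the difference between the groups is given.

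**Figure D4:**
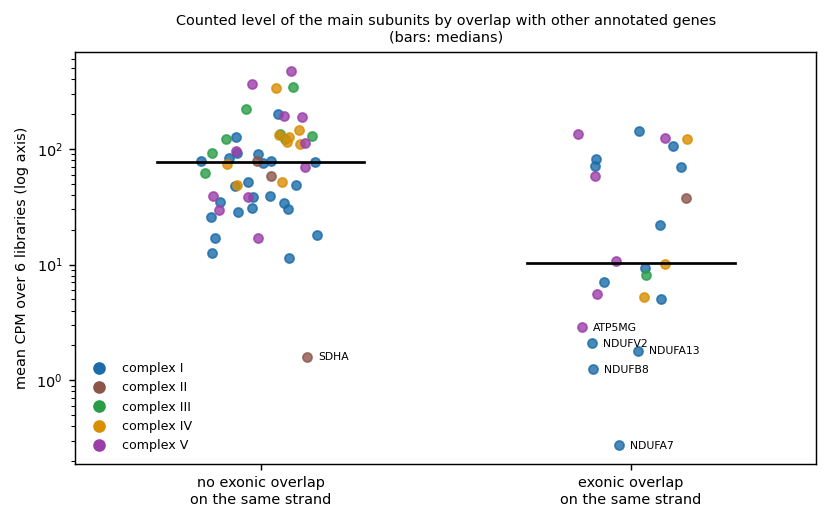
Points give the mean CPM over 6 libraries, on a log axis, of the 79 main subunits, split by whether their exons overlap another gene on the same strand, with bars at the medians of 76.6 and 10.4 CPM. Of the 12 genes under 10 CPM, 11 are in the overlapping group and the other is SDHA.

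The level per kb depends on the length used. Divided by the union of all annotated exons, SDHB was highest in complex II at 23.77 CPM per kb, and the highest members of complexes I, III, IV and V were NDUFS5, CYC1, COX6B1 and ATP5F1B. Divided by the length of the principal transcript, NDUFB9 took the highest place in complex I at 280.2 CPM per kb and COX4I1 in complex IV at 382.7 CPM per kb, while SDHB, CYC1 and ATP5F1B kept theirs at 50.77, 273.7 and 258.0 CPM per kb.

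Other genes of the pathway were read from the same test, in lists chosen with earlier results of these data known. Of 52 assembly factors tested, which build the complexes without being part of them, 4 rose and 2 fell (11.5%, beside 24.3% of all genes tested), with a median log2 fold change of 0.0068. Of the 4 that rose, 3 act on complex I: NDUFAF8 (36.9 ± 1.35 CPM in DMSO and 42.3 ± 1.80 in PARGi, log2 fold change 0.20, edgeR adjusted p = 0.000363), NDUFAF4 (0.19, adjusted p = 0.00371) and NDUFAF2 (0.11, adjusted p = 0.0479). NDUFAF3, which works together with NDUFAF4, fell from 35.9 ± 1.58 to 32.0 ± 0.161 CPM (-0.16, adjusted p = 0.0018). The complex III chaperone BCS1L rose (0.11, adjusted p = 0.0324) and the complex IV factor COA5 fell (-0.13, adjusted p = 0.0052). The calls for NDUFAF2 and BCS1L were lost in 11 and 9 of 18 alternatives. Among 12 tested genes for coenzyme Q, cytochrome c and the ATP synthase inhibitor, PDSS1 rose (0.14, edgeR adjusted p = 0.032) and COQ8B fell (-0.16, adjusted p = 0.000432). They were 16.7% of the 12, beside 24.3% of all genes tested. PDSS1 did not pass in 7 alternatives.

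Of the 13 protein genes of mitochondrial DNA, the partner subunits of the members, 6 fell and none rose (46.2%, beside 11% of all genes tested that fell). All 13 were above 10 CPM, a level at which 35.7% of all genes passed in either direction. The median log2 fold change of the 13 was -0.067. MT-ND5 stood at 1734, 1648 and 1614 CPM in DMSO and 1526, 1491 and 1505 CPM in PARGi (-0.14, edgeR adjusted p = 0.000161), and MT-ND1 at 1768, 1622 and 1565 CPM in DMSO and 1533, 1425 and 1475 CPM in PARGi (-0.16, adjusted p = 0.000854). Both are core subunits of the membrane arm of complex I, and their groups did not overlap. Summed over the 13 genes the groups overlapped, at 31380, 28470 and 27680 CPM in DMSO and 28840, 27630 and 27500 CPM in PARGi. The count rests on single libraries: without DMSO replicate 1 the median was 0.024 and 3 genes fell, without PARGi replicate 2 also 3, and without DMSO replicate 3 10 fell and 1 rose. DESeq2 gave 3 and robust dispersions 2, and with the GC and length offset 4 fell and the median was -0.025.

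Regulators of respiratory genes held the largest change in the pathway lists. PPARGC1A, the coactivator PGC-1α known for inducing respiratory genes, stood at 9.09, 9.11 and 8.60 CPM in DMSO and 5.79, 5.50 and 4.84 CPM in PARGi. The groups were far apart, and PPARGC1A fell by 0.74 on the log2 scale (SE 0.072, edgeR adjusted p = 3.98e-08), a change of -40.1%. GABPB1, a subunit of the ETS-family factor GABP (also called NRF2), fell from 34.5 ± 1.00 to 31.1 ± 0.850 CPM (-0.15, adjusted p = 0.00444). GABPA, its DNA-binding subunit, fell from 66.7 ± 3.38 to 61.2 ± 1.74 CPM (-0.12, adjusted p = 0.0105), a call lost without DMSO replicate 1 or PARGi replicate 3. POLG, the mitochondrial DNA polymerase, rose (0.10, adjusted p = 0.0193), though not in 4 alternatives. The 4 that passed were 28.6% of the 14, beside 24.3% of all genes tested and 35.7% of those at 10 CPM or more. The factors NRF1 and YY1, at log2 fold changes of -0.054 and -0.064, and TFAM, which packages mitochondrial DNA, at -0.0056, did not pass, nor did the other 7 of the 14 regulators.

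In the pyruvate dehydrogenase and TCA cycle list, which supplies NADH and succinate to the chain, 5 of 17 genes rose and 1 fell. The 6 that passed are 35.3% of the list, whose genes were all above 10 CPM, beside 35.7% of all genes at 10 CPM or more. FH, fumarase, stood at 90.0, 89.0 and 84.4 CPM in DMSO and 100.0, 103.1 and 102.1 CPM in PARGi (0.21, edgeR adjusted p = 5.25e-06). DLAT, the E2 subunit of pyruvate dehydrogenase, stood at 74.0, 72.2 and 70.6 CPM in DMSO and 83.8, 82.1 and 84.4 CPM in PARGi (0.21, adjusted p = 5.13e-06). In both the treated libraries were well above the controls. IDH3A (0.16), DLD (0.094) and IDH2 (0.11) rose as well, and SUCLG2 fell (-0.16). The call for IDH2 was lost in 10 of 18 alternatives, DESeq2 among them, and that for DLD in 3. Under upper-quartile scaling, and without PARGi replicate 2, 3 genes of this list rose in place of 5.

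**Figure D5:**
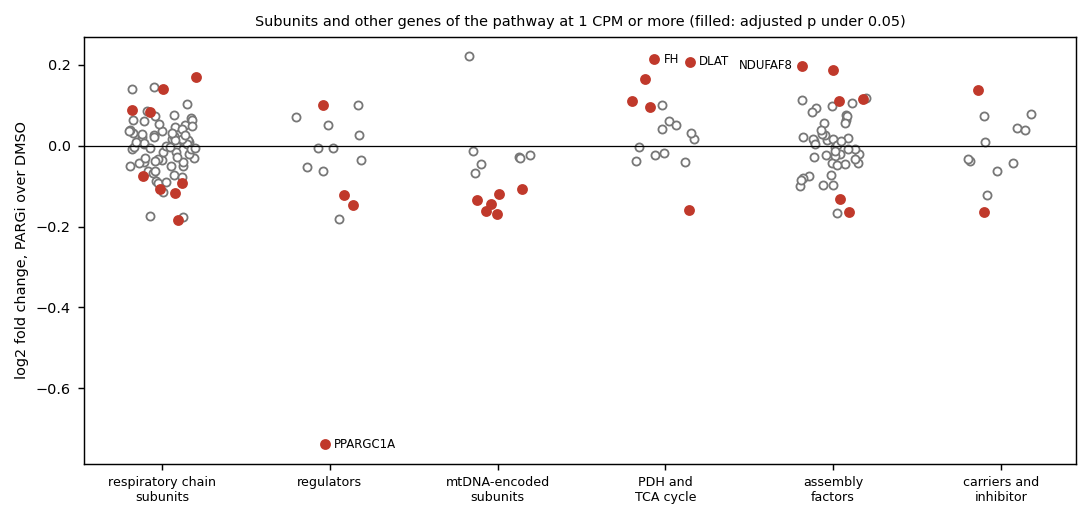
Points give the log2 fold change of PARGi over DMSO for the members and for the other pathway lists, for genes at 1 CPM or more, filled where the adjusted p was under 0.05. PPARGC1A at -0.74 lies far below all other genes shown, and FH, DLAT and NDUFAF8 are the highest genes that passed.

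Sequences before the transcription starts were searched because GABP and NRF1 are textbook regulators of these genes. RefSeq promoters (GRCh38.p14, 250 bases before the start) matched 70 of the 90 members. The letters CGCATGCG (NRF1 core), CCGGAAG (ETS core, the kind GABP binds) and AAGATGG (YY1 core) were sought on both strands, and a promoter with several was counted under each. The NRF1 core was present in 9 member promoters (12.9%), beside 1.86% of all 27305 promoters in the table. The ETS core was present in 17 (24.3%) beside 8.82%, and the YY1 core in 4 (5.71%) beside 3.77%. The promoters compared were not limited to protein-coding or expressed genes and were not matched to the members for base content. Whether these shares are particular to respiratory genes was not tested. Of the 7 members that passed the test and had a promoter in the table, 1 held an ETS core, SDHB, and 1 an NRF1 core, ATP5MC2. These windows of 30 bases on the gene's strand, 5′ to 3′ with the motif in capitals, show the match in the member that rose and in the one that fell.
SDHB: cacccgggaaaCCGGAAGccgcctcccact
ATP5MC2: ggcccgggtcaCGCATGCGctgagccttcc

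The SDHB window is at chr1:17054142-17054171 on the minus strand, with its motif starting 128 bases before the RefSeq start and at the 5′ end of the gene model in GENCODE 29. The ATP5MC2 window is at chr12:53676106-53676135 on the minus strand, 41 bases before the RefSeq start and inside the longer gene model of GENCODE 29. A match of letters is a description and does not show that a factor was bound.

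The labelled cell type was checked on markers. The 8 mesenchymal and osteoblast-lineage genes summed to between 9907 and 10700 CPM in DMSO and between 9991 and 10090 CPM in PARGi. COL1A1 (group means of 4374 and 4411 CPM) and VIM (2476 and 2372 CPM) were the most abundant. RUNX2 averaged 83.3 CPM in DMSO and 69.0 CPM in PARGi. COL1A2 (13.0 and 7.41 CPM), ALPL (4.68 and 5.52 CPM) and SPP1 (1.99 and 1.53 CPM) were counted at low levels. In this list RUNX2 (-0.27), SPARC (-0.083), COL1A2 (-0.80) and SPP1 (-0.37) fell and ALPL (0.23) rose. The calls for ALPL and SPP1 were lost in 9 and 8 of 18 alternatives, in both cases also with DESeq2. The 8 markers of epithelial, blood, endothelial, liver and neural cells summed to between 7.03 and 7.20 CPM in DMSO and between 6.55 and 7.03 CPM in PARGi. The highest of them was EPCAM, with group means of 3.53 and 3.02 CPM. The T cell marker CD3E and the liver marker ALB were at or near 0, and CDH1 rose from 0.718 to 1.14 CPM (0.67, edgeR adjusted p = 0.0104). The part of these changes in the values of the members was not tested.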

How the data were processed

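RNA was made into libraries with a strand-specific total RNA kit, per the labels' protocols. For each library the authors deposited unnormalized gene counts, all whole numbers. The submitters' processing notes name cutadapt 1.18, STAR 2.7.3a, SAMtools 1.9, DESeq2 (given as 3.12), deepTools and hg38, with no order. The annotation release is not given in the sources used here. Of 60708 identifiers, 60463 had a symbol in a gene name table and 58396 were found in GENCODE 29 (GRCh38), which gave biotypes, positions and exons. All 90 members were among them. The counts were fitted as deposited with edgeR 4.0.16 in R 4.3.3 (filterByExpr, TMM, glmQLFit, two-sided glmQLFTest, Benjamini-Hochberg), with treatment as the only term, over all 6 libraries. The SE was taken as the size of the log2 fold change over the root of the F statistic.

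Members and lists were chosen with earlier results of these data known. Named genes were the members past the threshold (at most 6 per complex), the highest per kb and the largest change at 1 CPM or more in each complex, the c subunit genes, the COX4I, COX7A, COX6A1 and NDUFA4 isoforms, and up to 2 genes per list. Any other gene was named after its values were seen. A marker of another cell type is not reported here and was left out of its list. The alternatives were DESeq2 1.42.0, limma 3.58.1 (voom), other scalings, filters and gene universes, robust dispersions, a replicate block, a loess offset for GC content and length (span 0.3) and each library left out. Figures were drawn with matplotlib 3.10.9.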

Additional observations from a re-analysis of the deposited data

How the results depend on the processing

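The direction of the 9 members that passed the test was the same in all 18 alternatives. NDUFA8, UQCRC2 and COX7B passed in each, and NDUFA4, ATP5F1D, ATP5MC2, NDUFA6, ATP5F1A and SDHB missed the threshold in 2, 3, 3, 4, 6 and 11 of them. Over 21 named members and 18 alternatives, 335 of 378 results were unchanged in direction and call, 29 lost the call, 2 gained it and 12 changed sign. The changes of sign were all in members that did not pass: COX4I1 (0.00083 with DESeq2, 0.0023 without a filter, -0.0139 to 0.0126 with a library left out), COX7A2 (0.0015, 0.003, and -0.0378 to 0.0271), ATP5MC1 (-0.003 under upper-quartile scaling, -4.7e-05 to 0.0399 with a library left out) and COX7A2L (-0.0674 to 0.005 with a library left out). Members that rose numbered 2 under upper-quartile scaling, 7 with the GC and length offset and 2 to 5 with a library left out, and those that fell 8 under upper-quartile scaling and 1 to 11 with a library left out, in place of 4 and 5. The test against a 1.1-fold change gave 0. In complex I, 1 member rose and 1 fell under upper-quartile scaling, 1 fell when protein-coding genes alone were fitted, and with a library left out 1 to 2 rose and 0 to 3 fell. In complex II, 0 rose with DESeq2, upper-quartile scaling, no filter, protein-coding genes alone, the replicate block or any library left out. In complex III, 2 rose with DESeq2, 3 with the GC and length offset with or without the block, and 1 to 3 with a library left out. In complex IV, 4 fell under upper-quartile scaling and 1 to 5 with a library left out, and in complex V 0 to 3. With a library left out the median log2 fold change ran from -0.0103 to 0.0564 in complex II and from -0.0679 to 0.0193 in complex V. Without members that have an annotated pseudogene the summed levels kept their direction in complexes I, III, IV and V, and all members of complex II have one. The causes of these moves were not tested.

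Both groups use the same replicate numbers, but same-numbered libraries did not deviate together (correlations of -0.0203, -0.0258 and -0.0827 over genes), so the number was not treated as a pairing. With the replicate block, 4553 genes passed in place of 4951, and 7 members in place of 9. Members under 10 CPM were measured less precisely: 10 of 15 tested had an interval reaching beyond 1.2-fold.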
